A study of Mus musculus with 3 samples.

Results

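The Malat1 and Neat1 locus on mouse chromosome 19 carried 12 of the 1639 ESRRA peaks of the series. The members were chosen by the position of the peaks themselves: every peak that overlapped the annotated interval of either gene, or whose midpoint lay within 30 kb of one, was taken. The presence and number of peaks at the locus are therefore a description and not a finding. The peaks came from ChIP-seq with an antibody against ESRRA on villus cells of the duodenal epithelium of WT mice, which the study describes as C57BL/6 mice on regular chow. The series held 2 ChIP libraries and 1 library of input chromatin, and no other genotype, treatment or time. The list available here was called on both ChIP libraries after they had been merged, so no value below has a replicate error, the list gives neither the reads behind a peak nor its height, and no difference was tested. Expression was not measured in these libraries, so the labelled villus cell type could not be checked against its markers.

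Neat1 and Malat1 are neighbouring genes for abundant nuclear RNAs that are not translated. The long form of Neat1 is the scaffold of paraspeckles, nuclear bodies that hold RNA-binding proteins such as NONO and SFPQ, whereas Malat1 RNA gathers in nuclear speckles, which store splicing factors. ESRRA, the estrogen-related receptor alpha, is an orphan nuclear receptor known for its part in mitochondrial energy metabolism, and it binds DNA at the extended half-site TCAAGGTCA. Coordinates are those of mm9, with genes from GENCODE version M1, and every peak was 601 bp wide.

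Both genes lie on the minus strand. Neat1 (ENSMUSG00000092274.1, chr19:5824708-5845478) spans 20771 bp with 4 annotated transcripts, and Malat1 (ENSMUSG00000092341.1, chr19:5795690-5802671) spans 6982 bp with 5. The longest transcript of each is a single exon that fills the gene. Of the 12 peaks, 9 lay in Neat1 and 3 at Malat1, and they are called N1 to N9 and M1 to M3 in the order of transcription. The sequences below are written 5′ to 3′ on the strand of the genes.

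The first set is shown because N3, N6 and N7 were the peaks of the locus that held AAGGTCA, the half-site without its first bases. Capitals mark AAGGTCA, and the core word AGGTCA or its reverse complement where it stands alone.
N3, chr19:5838530-5838650: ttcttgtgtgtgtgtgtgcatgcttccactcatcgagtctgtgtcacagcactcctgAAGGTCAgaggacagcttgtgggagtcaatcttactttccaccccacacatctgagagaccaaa
N6, chr19:5833418-5833538: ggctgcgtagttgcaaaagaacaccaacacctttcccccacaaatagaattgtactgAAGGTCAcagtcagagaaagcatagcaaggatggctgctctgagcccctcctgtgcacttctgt
N7, chr19:5832032-5832250: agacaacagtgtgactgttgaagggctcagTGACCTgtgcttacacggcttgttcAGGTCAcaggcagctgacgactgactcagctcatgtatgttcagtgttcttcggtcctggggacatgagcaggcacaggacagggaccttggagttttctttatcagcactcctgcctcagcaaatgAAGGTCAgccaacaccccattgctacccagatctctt

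In each of these 3 peaks the half-site stood on the gene strand and was preceded by TG, in place of the TC of the extended site. The midpoint of the peak was 7 bp from the half-site in N6, 20 bp in N7 and 89 bp in N3. N7 held AGGTCA 3 times, once of these on the strand opposite to the gene.

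The next set shows what lay at the ends of the genes. M1, upstream of Malat1, is printed around its midpoint with each CG in capitals. M2, just inside Malat1, is printed around its midpoint with TATAAA in capitals, and M3, past the end of Malat1, around its AGGTCA in capitals.
M1, chr19:5803266-5803416: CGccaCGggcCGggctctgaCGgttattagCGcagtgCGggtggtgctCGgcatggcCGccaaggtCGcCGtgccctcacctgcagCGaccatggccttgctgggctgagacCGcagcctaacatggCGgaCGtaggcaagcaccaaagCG
M2, chr19:5802133-5802283: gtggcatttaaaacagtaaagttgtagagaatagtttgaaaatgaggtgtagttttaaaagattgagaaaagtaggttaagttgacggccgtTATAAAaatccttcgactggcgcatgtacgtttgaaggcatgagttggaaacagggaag
M3, chr19:5795230-5795290: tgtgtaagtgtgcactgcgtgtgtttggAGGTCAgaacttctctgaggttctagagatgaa

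N1, at the start of Neat1, and N4 held CAAAGTCCA, a word of the type bound by HNF4, a nuclear receptor of the gut epithelium and liver. It is printed here in capitals as its reverse complement, because it lay on the strand opposite to the genes.
N1, chr19:5844708-5844768: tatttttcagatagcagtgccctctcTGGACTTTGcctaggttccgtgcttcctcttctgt
N4, chr19:5836066-5836126: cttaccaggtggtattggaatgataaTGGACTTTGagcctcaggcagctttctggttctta

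The 9 Neat1 peaks were spread over the whole gene. N1 (chr19:5844542-5845142) was centred 636 bp into Neat1, at 3.06% of the gene, and N9 (chr19:5825588-5826188) was centred 19590 bp into it, at 94.3%. Between them, N2 (chr19:5840817-5841417) lay at 21.0% and N3 (chr19:5838201-5838801) at 33.6% of the gene. Most of the remaining peaks stood close together in the middle of Neat1.

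N4 (chr19:5835524-5836124) lay at 46.5%, N5 (chr19:5834183-5834783) at 52.9% and N6 (chr19:5833171-5833771) at 57.8% of the gene. N7 (chr19:5831785-5832385) lay at 64.5% and N8 (chr19:5829875-5830475) at 73.7%. The steps between neighbouring midpoints were 1012 to 4287 bp, with a median of 2263 bp over 8 steps, the shortest being that from N5 to N6. Over all peaks of the series the median step between neighbours on a chromosome was 497.5 kb. Of 1618 steps, 202 (12.5%) were no longer than the longest step within Neat1. Peaks taken by their place at a gene lie close together by the rule, so nothing is read from this difference.

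All 601 bases of each of the 9 peaks were inside Neat1. Together they covered 5409 bases, 26.0% of the gene, and the longest stretch of Neat1 with no peak was 3686 bp. The 3 shorter annotated transcripts of Neat1 all lie in its first 3172 bp, where 1 midpoint (N1) fell, or 0.315 per kb. The other 8 midpoints fell in the 17599 bp that the long, paraspeckle-forming transcript alone covers, or 0.455 per kb.

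**Figure D1:**
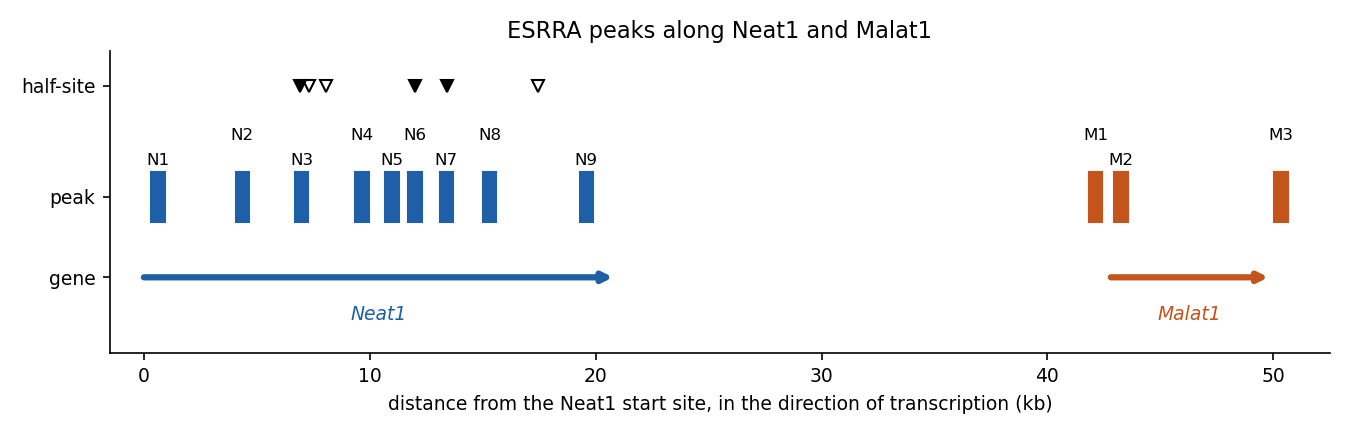
Map of the 12 ESRRA peaks (bars, 601 bp each) along Neat1 and Malat1 (arrows in the direction of transcription), plotted by distance in kb from the start of Neat1. Triangles mark each AAGGTCA inside a gene, filled where a peak covers it. The 9 blue peaks run through Neat1, the 3 orange peaks lie around the ends of Malat1, and 3 of 6 triangles are filled.

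At Malat1 the peaks lay at the ends of the gene, and its body between them had none. M1 (chr19:5803041-5803641) was upstream of the gene, with its midpoint 670 bp before the start and its nearer edge 370 bp away. M2 (chr19:5801908-5802508) was inside the first exon of the longest transcript, with its midpoint 463 bp downstream of the start, at 6.63% of the gene. M3 (chr19:5794838-5795438) began 252 bp past the annotated end of Malat1, and its midpoint was 552 bp past it. M2 was thus the single peak that overlapped Malat1, of which it covered 601 bases (8.61%), and a stretch of 6218 bp with no peak followed it up to the end of the gene. Malat1 held 0.143 midpoints per kb, against 0.433 in Neat1. Between N9 and M1, over 21946 bp, no peak was listed.

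A gap of 532 bp separated M1 and M2. The Malat1 promoter given by RefSeq for the GRCm38.p6 assembly, which runs from before the start to 50 bases past it, matched mm9 exactly once, in this gap, 118 bp from M1 and 114 bp from M2. It is printed in full since the peaks lay on either side of it and neither reached it.
Malat1 promoter, chr19:5802623-5802922: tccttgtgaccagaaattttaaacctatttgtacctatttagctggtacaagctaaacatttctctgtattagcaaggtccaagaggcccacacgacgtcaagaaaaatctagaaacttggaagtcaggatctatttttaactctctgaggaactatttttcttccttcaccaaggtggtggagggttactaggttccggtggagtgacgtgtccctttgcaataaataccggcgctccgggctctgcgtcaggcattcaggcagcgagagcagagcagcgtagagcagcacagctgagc

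It is in lower case throughout because it held none of the 5 words searched on either strand. The ESRRA half-site AAGGTCA was in 4.72% of 32851 RefSeq promoters of the same length of 300 bases, and its core AGGTCA was in 16.3%. The promoter word CCAAT was in 37.4% of them, the SP word CCGCCC was in 35.7%, and the word TATAAA of the core promoter was in 13.6%. The GC content of this promoter was 47.0%, below the 62.1% of M1 and above the 40.3% of M2.

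The midpoints of 10 of the 12 peaks lay in an exon of Malat1 or Neat1, and the same 10 peaks had all their bases in exons. Over the series, 2.01% of peaks had their midpoint in an exon of a gene annotated as lincRNA or processed transcript. Other GENCODE classes of noncoding genes were not counted. The peaks so placed were 33, of which the locus gave 30.3%. Since the peaks were chosen by their place at genes that consist of exon throughout, nothing is read from this share. The midpoint lay within 1 kb of an annotated start site in 3 of the 12 peaks (N1, M1 and M2, 25.0%) and in 29.8% of all peaks. This share too depends on the place by which the peaks were chosen, so nothing is read from it either.

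The rule used no sequence, so the words in the peaks can be set beside the other peaks. AAGGTCA on either strand was in 3 of the 12 peaks (25.0%, 95% Wilson interval 8.89 to 53.2%) and in 44.0% of all peaks, which is inside that interval. Among the 1303 other single-copy peaks, those with a median of at most 10 genomic copies per 24-base word, the share was 51.7%, and in 3056 windows 2 kb from other peaks it was 12.6%. The 18 windows beside the locus peaks held it in 2. The extended site TCAAGGTCA was in 0 of the 12 peaks, which allows a share of up to 24.2% by the Wilson interval, in 14.3% of all peaks and in 1.60% of the windows beside other peaks. For AAGGTCA and TCAAGGTCA the interval at the locus held the share of all peaks and that of the windows. For these words 12 peaks were thus too few to tell which was nearer. The form CAAGGTCA, which lies inside TCAAGGTCA, was in 0 of the 12 peaks (interval 0 to 24.2%). It was in 27.9% of all peaks and in 34.8% of the other single-copy peaks, both above that interval. Its share of 4.09% in the windows beside other peaks was inside the interval.

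The form TGAAGGTCA, which was looked for after it had been seen in N3, N6 and N7, was in 3 of the 12 peaks and in 4.64% of all peaks. In the other single-copy peaks AAGGTCA occurred 993 times. TC stood before it in 32.1% of these sites, the most frequent pair, and TG in 7.75%, which came after CC and GC as well. Of the 993 sites, 355 (35.8%) were within 50 bp of the midpoint of their peak, as were those of N6 and N7 but not that of N3.

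**Figure D2:**
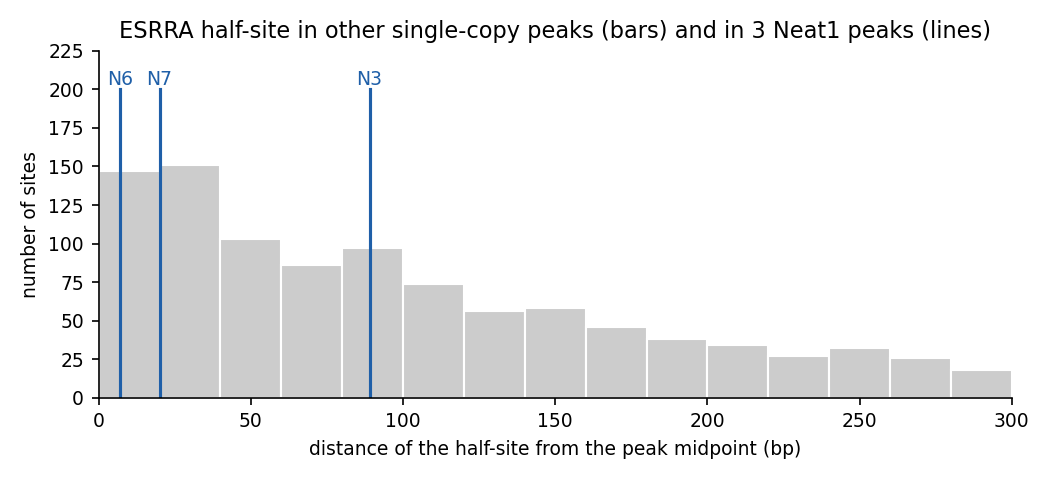
Distance in bp of the ESRRA half-site AAGGTCA from the midpoint of its peak, for 993 sites in other single-copy peaks (grey bars, number of sites in steps of 20 bp) and for the Neat1 peaks N6, N7 and N3 (blue lines, at 7, 20 and 89 bp). The grey bars are tallest near the midpoint, and the lines of N6 and N7 lie there.

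Neat1 as a whole held AAGGTCA 6 times, 3 under a peak and 3 outside, or 0.555 per kb of covered and 0.195 per kb of uncovered sequence. The nearest uncovered site was 319 bp from the midpoint of N3, just outside that peak. The core AGGTCA, which every AAGGTCA contains, occurred 17 times in Neat1, 7 under a peak and 10 outside, or 1.29 and 0.651 per kb. Malat1 held no AAGGTCA and 3 AGGTCA, none of them under M2. As a share of peaks, AGGTCA was in 5 of 12 (N3, N4, N6, N7 and M3; 41.7%, interval 19.3 to 68.0%), in 61.4% of all peaks, in 70.1% of the other single-copy peaks and in 34.2% of the windows beside other peaks. The interval holds the first and the last of these shares, and its upper end is below the second.

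Words bound by other factors of the gut were present at the locus in small numbers. CAAAGTCCA was in 2 of 12 peaks and in 2.56% of all. N1 held it 104 bp from its midpoint and N4 272 bp away, near its edge. The word AGATAA, read by the zinc finger factors of the GATA family, was in N1, N7, N9 and M2 and in 27.5% of all peaks. Its variant TGATAA was in N4, N6 and N7 and also in 27.5% of all. TTTATGG, of the type bound by the intestinal factor CDX2, was in N3 alone (8.33% of the 12) and in 6.59% of all peaks. The AP-1 word TGACTCA was in N7 alone and in 12.1% of all peaks. In the windows beside other peaks CAAAGTCCA was in 1.15%, AGATAA in 27.6%, TGATAA in 24.8%, TTTATGG in 8.21% and TGACTCA in 9.78%.

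CCGCCC, a KLF and SP word common in promoters, was in N1, N4, N5 and M1 and in 23.2% of all peaks. CACCC was in 9 of 12 and in 74.2% of all, TATAAA in 5 of 12 and in 30.4%, and CCAAT in 5 of 12 and in 55.3%. TTTATTG was in no locus peak and in 12.3% of all, and the longer HNF1 word was in none of the 1639 peaks. In the windows beside other peaks CCGCCC was in 10.6%, CACCC in 71.8%, TATAAA in 34.4%, CCAAT in 57.2% and TTTATTG in 12.4%. Each of these words was counted on both strands, and a match says only that the letters are there.

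The median GC content of the 12 peaks was close to that of all peaks. It was 48.4%, with M2 the lowest at 40.3% and M1 the highest at 62.1%, and the median of all peaks was 48.8%. N1, at the other start site, was second with 56.7%, and the 8 Neat1 peaks further along the gene had 43.3 to 51.6%. The 1303 other single-copy peaks, the set most like these 12 in copy number, had a higher median of 50.4%. The windows 2 kb beside the locus peaks had a median of 45.2%, and those beside other peaks 45.3%. The ratio of observed to expected CpG was 0.814 in M1, with 47 CpG in 601 bases, and 0.672 in M2. It was 0.0710 to 0.442 in the Neat1 peaks, and its median was 0.243 over all peaks. M1 and M2, at the start of Malat1, thus both stood above the Neat1 peaks on this ratio, although M2 was the poorest in GC.

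**Figure D3:**
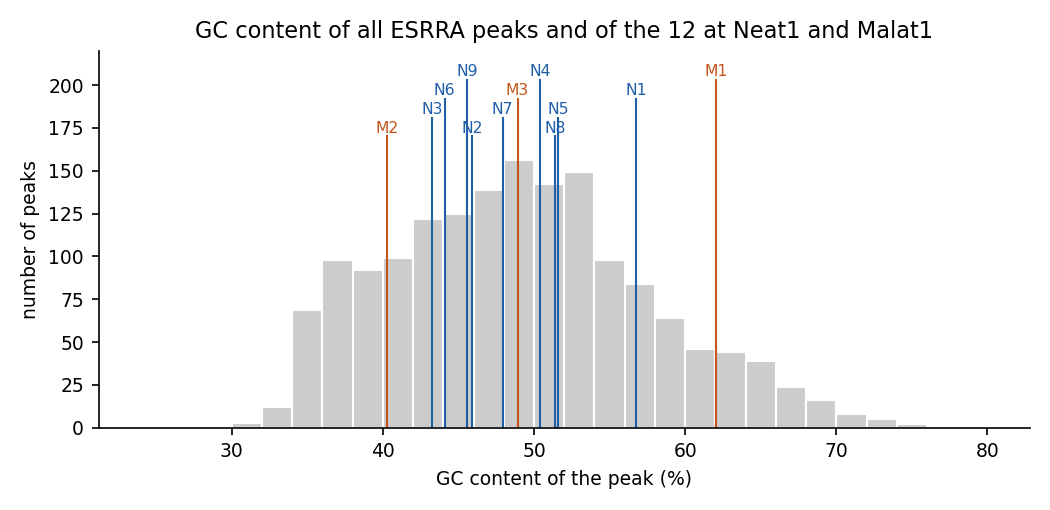
GC content in percent of the 1639 ESRRA peaks (grey bars, number of peaks in steps of 2%), with a line for each peak of the locus, blue for Neat1 and orange for Malat1. The lower and upper quartiles of all peaks were 42.6% and 54.4%. M2, at 40.3%, lies below this range, N1, at 56.7%, and M1, at 62.1%, lie above it, and the other lines lie inside.

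All 12 peaks were single-copy by their median, as were 80.2% of all peaks. In N1, N7, M1 and M3 every 24-base word occurred once in the genome. The remaining 8 held some repeated words, and 3 of them, N5, N9 and M2, held words of over 1000 copies. The longest unbroken run of such words in each is printed below, to show what the repeated sequence is.
N5, chr19:5834218-5834267: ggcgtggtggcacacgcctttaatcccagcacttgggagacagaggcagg
N9, chr19:5826021-5826054: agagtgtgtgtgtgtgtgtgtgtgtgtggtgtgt
M2, chr19:5801970-5802095: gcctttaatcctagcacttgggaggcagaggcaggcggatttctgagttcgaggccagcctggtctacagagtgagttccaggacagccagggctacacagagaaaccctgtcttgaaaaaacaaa

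N5 held 33 such words, N9 held 23 and M2 held 103, and 80.1%, 88.9% and 77.5% of their words were single. The run in N9 is mostly a repeat of GT. Those in N5 and M2 read as B1, a short interspersed element common in rodent genomes, and the peaks shared an unbroken run of 29 bases on the gene strand. No repeat annotation was used. How reads from such stretches were placed was not tested.

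Among all annotated genes, Neat1 ranked 4 by the number of peak midpoints inside the gene. The locus was chosen with its peaks known, so its ranks are a description only. Gm16869, a lincRNA gene, had 21, of which 20 were in multi-copy peaks. St3gal4, a sialyltransferase gene, had 14, Slc5a1, the gene of the intestinal sodium-glucose cotransporter, had 12, and Mgam, maltase-glucoamylase, had 9 like Neat1. Sis, sucrase-isomaltase, followed with 8. Of the 841 genes with any midpoint, the median had 1, as Malat1 had. Per kb of gene, Neat1, with 0.433, again ranked 4 among the 35 genes with at least 3 midpoints. Fabp1 (0.577), Gm16869 (0.552) and Lgals4 (0.506) were above it. All 9 Neat1 peaks were single-copy.

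**Figure D4:**
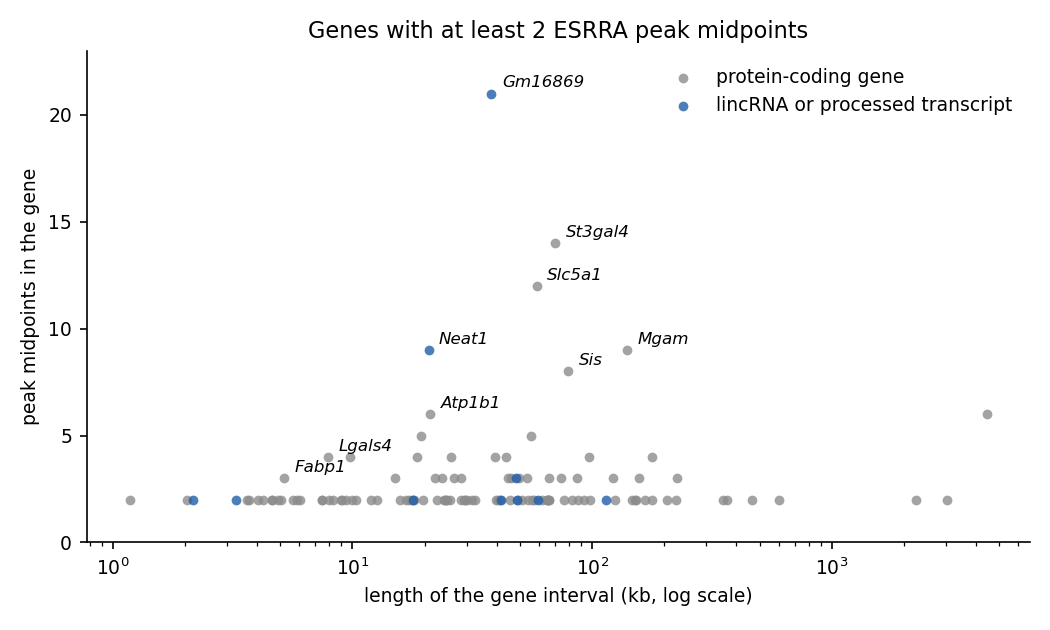
Number of ESRRA peak midpoints in each gene with at least 2, against the length of the gene in kb (log scale), with protein-coding genes in grey and lincRNA or processed transcript genes in blue. Neat1, at 9 midpoints, stands above the genes of like length, but the locus was chosen with its peaks known. Genes that overlap share midpoints.

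St3gal4, Slc5a1 and Sis, 3 protein-coding genes with many peaks, are set beside Neat1 for the place of the peaks in the gene, with no test. Per kb of gene they held 0.199, 0.205 and 0.101 midpoints, fewer than Neat1. The 14 midpoints inside St3gal4 all lay in introns, and 11 were in the second 50% of the gene. Of the 12 inside Slc5a1, 3 lay in exons and 9 were in the first 50%, and of the 8 inside Sis, 1 lay in an exon and 6 were in the first 50%. Neat1 had 4 in the first and 5 in the second 50%. Exons make up 2.89% of St3gal4, 7.02% of Slc5a1 and 8.12% of Sis, but all of Neat1, so the exon counts are not on the same footing. AAGGTCA was in 2 of 17 peaks in and around St3gal4, in 1 of 14 at Slc5a1 and in 2 of 10 at Sis, against 3 of 9 in Neat1. Among the other genes with at least 5 midpoints the share went both ways. Peaks with AAGGTCA were 3 of 9 inside Mgam, 5 of 6 inside Gm20388 and 3 of 5 inside Rbp2. Inside Atp1b1, a sodium pump gene of like length to Neat1, they were 3 of 6. They were 0 of 21 inside Gm16869 and 0 of 5 inside Abcc2. Over all peaks the share was 44.0%, above that of Neat1. In none of the runs at Neat1, St3gal4, Slc5a1 and Sis did a peak hold TCAAGGTCA. The median GC content was 42.1% at St3gal4, 45.6% at Slc5a1 and 36.4% at Sis, and 47.9% in Neat1.

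**Figure D5:**
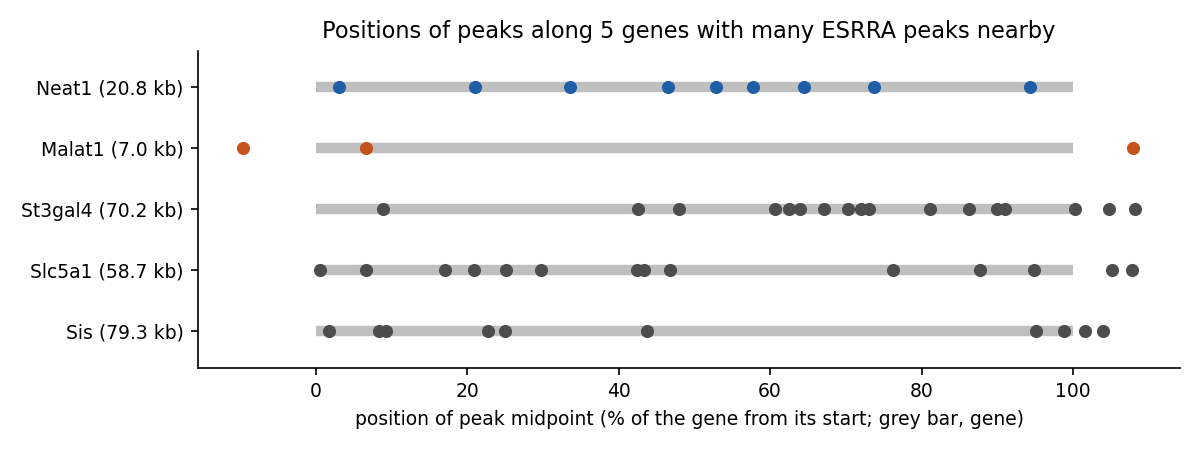
Position of each ESRRA peak midpoint along Neat1, Malat1, St3gal4, Slc5a1 and Sis, in percent of the gene from its start (0) to its end (100). Grey bars are the genes, and points outside them are peaks upstream or downstream. In Neat1 the points run from 3.06 to 94.3%, and at Malat1 1 of 3 points is on the bar.

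Beside Malat1 and Neat1, the genes described here with a start site within 30 kb of a locus peak were Gm20417, Gm9783 and Frmd8. Gm20417, a noncoding gene inside Malat1 on the other strand, started 2424 bp from the midpoint of M3, and Gm9783, a noncoding gene, 3666 bp from that of N1. The protein-coding gene Frmd8 started 18840 bp from N1. None of these 3 had a start site within 1 kb of a midpoint, and none had a locus midpoint inside it. Slc25a45, a mitochondrial carrier gene, fell just outside the limit, at 32966 bp from N1. The next peaks of the list were 79.2 kb upstream of Neat1 and 1749 kb beyond Malat1.

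Genes for the proteins of paraspeckles and speckles were examined as partners of these RNAs. Of 32 listed genes, all found in the annotation, 5 (15.6%) had a start site within 30 kb of an ESRRA peak, against 8.79% of all protein-coding genes. They were Hnrnpk, Dazap1, Srsf2, Srsf5 and Prpf8. For Srsf2, a splicing factor of nuclear speckles, the start site was 144 bp from a midpoint, and it alone was within 1 kb (3.13%, against 2.09%). Srsf2 and Smarca4, 2 of the 32, had a midpoint inside the gene, as had 3.41% of all protein-coding genes. No interval was computed for these small counts, so no difference from all protein-coding genes is read from them. For Nono and Sfpq, which form the core of paraspeckles, the start site was 4570551 bp and 1963380 bp from the nearest midpoint.

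Of 33 other long noncoding RNA genes, 26 were matched, and 3 of these (11.5%) had a start site within 30 kb of a midpoint, against 6.85% of all lincRNA and processed transcript genes. They were Airn at 16845 bp, Snhg1 at 10044 bp and the host gene of Mir22 at 1031 bp. The last alone had a midpoint inside it, where 1.61% of all such genes had one. Xist, Tsix and H19 had no peak within 1000 kb, and none of the 26 had one within 1 kb of its start. The counts among the 26 are also small and without an interval, so no difference is read from them.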

How the data were processed

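ESRRA ChIP-seq libraries (2) and an input library (1) were grouped by their titles. As the study describes, the authors aligned paired-end reads to mm9 with Bowtie2 (2.2.6, per the submitters' processing notes), merged the ChIP libraries with SAMtools (0.1.19) and called peaks with MACS2 at p = 1e-05. How peaks came to have 1 width, and any filter on repeats, are not given in the sources used here. The deposited values were the start (counted from 0) and end of each peak in bp. Coordinates are given counted from 1. Merged peaks hide differences between libraries, and the list does not give the exact depth per sample.

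Genes came from GENCODE M1 and sequence from NCBI build 37, which is mm9. Words were matched exactly on both strands. Copies of each 24-base word were counted over the genome, and a median of over 10 made a peak multi-copy. Wilson intervals (95%) for shares of peaks cover counting error between peaks only. Those for percentages of bases counted each base as an independent unit and give no error between peaks. Windows 2 kb to each side served as surroundings. Python 3.11.15, pysam 0.24.0 and scipy 1.17.1 were used, and the functions were tested on simulated data. The genes named were both members, every gene with a start site within 30 kb of a locus peak, the 5 other genes with most midpoints, noncoding genes with at least 2 midpoints in exons, and listed genes with a peak within 1 kb, except 1 item that is not reported here. Others, such as the listed genes within 30 kb and those set out for contrast, were named after their values were seen. The members and lists were chosen with earlier results of these data known. No test was run, since no sample-level value was at hand.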

Additional observations from a re-analysis of the deposited data

How the results depend on the processing

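Under 11 of the 16 alternative settings a count stayed within 1.5 times of the reported one, or a percentage of bases within its Wilson interval. The number of peaks at the locus was 10 by overlap alone, 12 within 10 kb, 13 within 100 kb and 8 with neighbours under 1 kb apart merged. When only 100 bases to either side of each midpoint were counted, 8.71% of Neat1 and 2.88% of Malat1 lay under a peak, by the construction of that setting. AAGGTCA was in 3 peaks, its core AGGTCA in 5, TCAAGGTCA in 0, and a form with at most 1 mismatch to AAGGTCA in 9 (and in 93.3% of all peaks). With a mean in place of a median of at most 10 copies, 9 of 12 peaks were single-copy, without N5, N9 and M2. The median GC content was 50.2% in the same central bases.

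A stricter peak threshold could not be tried, as the list holds no score, nor could a ChIP library be left out of a merged list. No paired analysis was possible because the peak list pools the replicates. A list without heights cannot rank the 12 peaks.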

Other observations

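Neat1 was 1 of 62 lincRNA or processed transcript genes with an ESRRA peak midpoint inside, of which 10 had at least 2 and 3 had at least 3. With Gm16869 it was 1 of 2 with at least 2 midpoints in exons. Gm16869 had 6 of its 21 midpoints in exons, where exons make up 7.08% of the gene, and none of its peaks held AAGGTCA. The third gene with at least 3 midpoints, 0610008F07Rik on chromosome 2, had 3 midpoints in 47914 bp, none in an exon, and 1 of these peaks held AAGGTCA. Gm15655 on chromosome 8 and Gm15884 on chromosome 6 were the shortest with 2 midpoints, at 2156 and 3259 bp, so that 55.8% and 34.8% of their bases lay under a peak, beside 26.0% of Neat1. These 3 genes were named after their values had been seen.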
